A study of Mus musculus with 10 samples.

Results

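The Ly6 family genes described here were Ly6a, Ly6c1, Ly6c2, Ly6d, Ly6e, Ly6k and Ly6g6c, 7 genes chosen by name out of 25814 listed for every library. Poly(A) RNA was sequenced from 10 libraries in 5 groups of 2. All cells came from C57/B6 mice as far as the study's methods say. Keratinocytes, grown from the tail skin of adult mice in serum-free medium with low calcium, were collected by themselves (keratinocytes alone) or once T cells had been cultured on them (co-cultured keratinocytes). Splenic T cells, picked with CD8 microbeads and activated with antibodies to CD3 and CD28 for 1 d, were collected at once (activated T cells), after 1 d more in keratinocyte medium (T cells in keratinocyte medium), or after 1 d more with keratinocytes (co-cultured T cells). The sample labels and the study give 1 d of co-culture, whereas the series' design text gives 1 h. By the study's account the cultured T cells, with or without keratinocytes, were in keratinocyte medium mixed with a smaller part of X-VIVO, the T-cell medium. The T cells were washed off the keratinocytes before collection.

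Ly6 proteins are small disulphide-rich proteins, most of which are held on the outer cell surface by a glycolipid anchor. Several of them are used as markers of cell state: Ly6A, also called Sca-1, marks blood-forming stem cells and activated T cells, Ly6C marks monocytes and memory-type CD8+ T cells, and Ly6D marks keratinocytes and early B-lineage cells. Ly6a, Ly6c and Ly6e genes are known to respond to interferons. 6 of the 7 genes lay within 350 kb of chromosome 15 (GRCm38), in the order Ly6d (chr15:74762056-74763620, minus strand), Ly6k (chr15:74796874-74799986, minus), Ly6e (chr15:74955051-74959905, plus), Ly6a (chr15:74994877-74998031, minus), Ly6c1 (chr15:75044018-75048830, minus) and Ly6c2 (chr15:75108158-75111970, minus). Ly6g6c lay apart, in the major histocompatibility region of chromosome 17 (chr17:35065388-35070050, plus), and its first 797 bases overlapped the antisense gene Mpig6b.

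Ly6c1 and Ly6c2 are near-copies, and their sequences are shown because the cell types differed in which of them they used. Their 396-base coding sequences (GENCODE vM21, first listed transcript of each) differed at 9 positions, 97.7% being identical, and the longest identical run was 188 bases. Of the 9 differences, 6 fell in the first 150 coding bases, printed 5′ to 3′ with the differing bases in capitals.
Ly6c1 coding bases: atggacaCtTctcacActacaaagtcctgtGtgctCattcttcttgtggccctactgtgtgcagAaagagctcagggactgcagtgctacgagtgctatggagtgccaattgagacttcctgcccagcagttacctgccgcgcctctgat
Ly6c2 coding bases: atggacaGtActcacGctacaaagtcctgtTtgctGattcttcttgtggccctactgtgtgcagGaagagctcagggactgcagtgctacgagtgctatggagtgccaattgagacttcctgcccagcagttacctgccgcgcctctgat
The 250 bases before their start sites were less alike. In an alignment of 284 columns, 164 were identical, 52 were mismatched and 68 stood opposite a gap. They are printed from RefSeq (GRCm38.p6, minus strand), with capitals for bases that were not identical in the alignment.
Ly6c1 upstream bases, chr15:75048838-75049087: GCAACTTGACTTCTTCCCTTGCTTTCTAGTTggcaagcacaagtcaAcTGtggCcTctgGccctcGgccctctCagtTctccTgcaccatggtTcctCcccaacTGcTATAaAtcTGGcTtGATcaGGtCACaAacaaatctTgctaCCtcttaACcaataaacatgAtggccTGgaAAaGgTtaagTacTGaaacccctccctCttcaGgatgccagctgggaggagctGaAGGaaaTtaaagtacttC
Ly6c2 upstream bases, chr15:75111972-75112221: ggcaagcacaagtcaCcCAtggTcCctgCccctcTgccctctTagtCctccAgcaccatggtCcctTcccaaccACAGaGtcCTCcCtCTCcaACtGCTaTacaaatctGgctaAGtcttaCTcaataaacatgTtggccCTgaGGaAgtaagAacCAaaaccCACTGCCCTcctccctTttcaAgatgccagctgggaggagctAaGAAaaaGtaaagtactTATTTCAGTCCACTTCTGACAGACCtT
Promoters were matched for 3 of the 7 genes, Ly6c1, Ly6c2 and Ly6g6c. The letters TTCNNNGAA of the interferon-gamma-activated site, a palindrome searched on both strands, were not found in the 300 bases around their starts. Of 32851 promoters of that length, 8.30% held them. At that share most sets of 3 promoters hold no match, so their absence here sets these genes apart from no others. Ly6a and Ly6e were not among the promoters matched.

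Total exon reads ranged from 12864931 to 18019609 per library. Values are RPKM, in which reads are scaled to exon length and to the mapped reads of the library, unless a log2 difference is named. Several libraries held RNA of the other cell type or of further cells. Over 5 T-cell markers, the summed level was 67.5 and 252 RPKM in keratinocytes alone and 83.9 and 454 RPKM in co-cultured keratinocytes, with none at 0, although Cd8a, the defining CD8 gene, reached only 1.16 RPKM there. Over 12 markers of differentiated keratinocytes, the sum was at most 1.69 RPKM in the T-cell groups without keratinocytes and 601 and 609 RPKM in co-cultured T cells. The 4 B-cell markers summed to between 16.6 and 92.3 RPKM in the T-cell libraries, and Cd4 reached 102 RPKM in 1 library of activated T cells. In keratinocytes the 5 fibroblast markers summed to at most 2.31 RPKM and the 3 endothelial markers to at most 2.85 RPKM, with Cdh5 at 0 and Pecam1 at up to 2.67 RPKM. Cd4 reached 43.5 RPKM in keratinocytes alone and 84.5 RPKM in co-cultured keratinocytes. The myeloid markers summed to up to 31.9 and 44.6 RPKM in these 2 groups, and the melanocyte markers to up to 16.4 and 18.9 RPKM. Fewer cells of a type and less RNA per cell cannot be told apart in these bulk libraries.

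The family split into genes that both cell types used and genes that mostly 1 of them used. Ly6a and Ly6e were high everywhere, Ly6d, Ly6c1 and Ly6g6c were keratinocyte genes, and Ly6c2 and Ly6k were T-cell genes. Between keratinocytes alone and activated T cells, 6 of 7 genes passed an adjusted p of 0.05 (edgeR quasi-likelihood test, Benjamini-Hochberg over all genes), the exception being Ly6a. Of all 13394 genes tested, 35.5% passed. Ly6g6c, with no read in activated T cells, entered this fit only through other groups. With at least 10 reads required in every library, the members called were Ly6c1, Ly6d, Ly6e and Ly6k. Ly6c2, Ly6d and Ly6g6c passed in each fit that left out 1 library. Ly6c1 was lost without replicate 2 of keratinocytes alone or either library of activated T cells, Ly6e without either library of keratinocytes alone or replicate 1 of activated T cells, and Ly6k without either library of keratinocytes alone or replicate 2 of activated T cells. Over all the fits that left out 1 library, the log2 difference ranged from 1.54 to 3.90 for Ly6c1, from 1.28 to 2.35 for Ly6e and from -3.37 to -2.60 for Ly6k. DESeq2 also called Ly6a (0.89, adjusted p = 0.0449). Summed over the 7 genes, the level was 1973 and 2472 RPKM in keratinocytes alone against 559 and 737 RPKM in activated T cells.

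**Figure D1:**
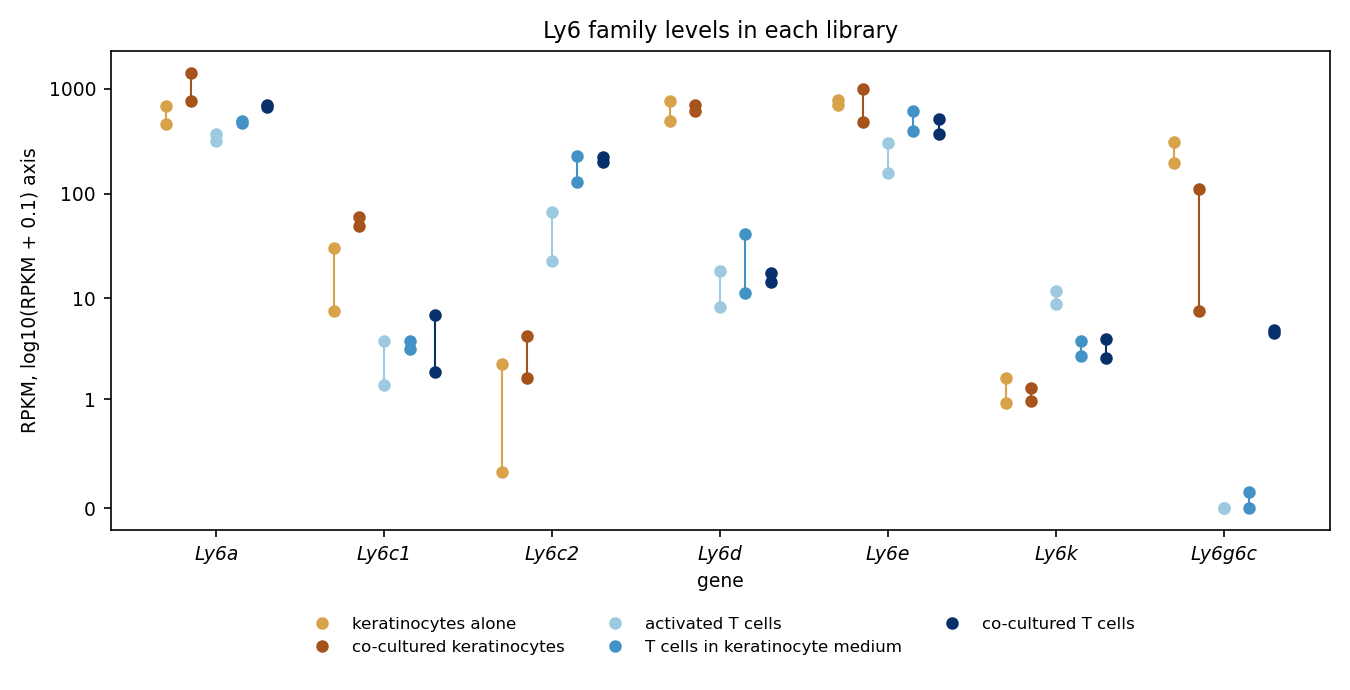
RPKM of each Ly6 gene (x axis) in each of the 10 libraries, on a log10(RPKM + 0.1) axis; points are libraries and a line joins the 2 libraries of a group. Ly6d, Ly6c1 and Ly6g6c were higher in keratinocytes and Ly6c2 and Ly6k in T cells, while Ly6a and Ly6e exceeded 150 RPKM in every library.

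Ly6d, which encodes a surface protein of stratified epithelium, reached 495 and 773 RPKM in keratinocytes by themselves and 609.8 and 705 RPKM after co-culture. In T cells it was at 8.24 and 18.2 RPKM after activation, 11.1 and 41.1 RPKM in keratinocyte medium and 17.3 and 14.2 RPKM after co-culture. The cell types did not overlap, and Ly6d was 48.0-fold higher by group mean in keratinocytes alone than in activated T cells (log2 difference 5.72 ± 0.78 SE, edgeR adjusted p = 0.00106). The T-cell library with the highest Ly6d level, 1 of those in keratinocyte medium, also had the highest B-cell marker sum, 92.3 RPKM. The part of B-lineage RNA in the Ly6d level was not tested.

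Ly6g6c, a little-studied relative encoded beside the complement genes, was at 313 and 195 RPKM in keratinocytes alone. No read of it was counted in activated T cells, so it was at least 1796-fold higher in keratinocytes, taking 3 reads in each T-cell library as the floor. The edgeR adjusted p of 0.00110 is that of a gene that passed the read filter only through groups other than activated T cells. Mpig6b, which overlaps its 5′ end on the other strand, stayed at or below 2.08 RPKM in every library, and the counting was not stated to use strand.

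Ly6e, an interferon-inducible gene known for its effects on virus entry, was the highest member by mean in keratinocytes alone, with 698 and 785 RPKM. It ranked 103 among all genes there and 282 in activated T cells, which held 157 and 308 RPKM. The log2 difference was 1.80 ± 0.46 (SE, edgeR adjusted p = 0.0158). Ly6a reached 459 and 685 RPKM in the former and 317 and 373 RPKM in the latter. Its log2 difference of 0.88 ± 0.37 did not pass (edgeR adjusted p = 0.0957), although the libraries did not overlap.

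Ly6k encodes a family member best known from the testis, where it acts in sperm migration. It was low throughout, with 1.65 and 0.921 RPKM in keratinocytes by themselves and 8.75 and 11.6 RPKM in activated T cells, 7.93-fold higher by mean in the T cells (log2 difference of keratinocytes against T cells -2.84 ± 0.76 SE, edgeR adjusted p = 0.0195). The reads also lay differently on the gene. In keratinocytes alone, 34 of 60 and 48 of 61 reads were intronic, which is 56.7% (95% Wilson interval 44.1 to 68.4) and 78.7% (66.9 to 87.1). In activated T cells only 2 of 124 and 7 of 146 were, 1.61% (0.443 to 5.69) and 4.79% (2.34 to 9.57). In co-cultured keratinocytes the counts were 6 of 18 and 0 of 18. These intervals cover counting error only. No intron share was tested between groups.

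The pair of Ly6c genes was divided between the cell types. Keratinocytes alone held 7.48 and 30.6 RPKM of Ly6c1, co-cultured keratinocytes 49.2 and 59.6 RPKM, and the T cells between 1.38 and 6.87 RPKM over 6 libraries. Of Ly6c2, keratinocytes alone held 0.121 and 2.30 RPKM, co-cultured keratinocytes 1.67 and 4.33 RPKM, and the T cells between 22.6 and 229 RPKM. For both genes, no keratinocyte library overlapped a T-cell library. Ly6c1 was higher in keratinocytes alone than in activated T cells (log2 difference 3.01 ± 0.89 SE, edgeR adjusted p = 0.0287) and Ly6c2 lower (-5.02 ± 1.06, edgeR adjusted p = 0.00713).

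Because the coding sequences are so alike, only 48.7% to 61.3% of the Ly6c1 reads and 54.5% to 67.8% of the Ly6c2 reads per library mapped to 1 place (libraries with at least 20 reads), against 90.8% or more for Ly6a. The split was therefore also taken over unique reads, as a description. Of the unique reads of both genes, Ly6c1 took 98.6% (95% Wilson interval 95.2 to 99.6) and 96.1% (94.1 to 97.5) in keratinocytes alone and 98.3% (97.1 to 99.0) and 95.5% (94.0 to 96.7) in co-cultured keratinocytes. In T cells it took between 1.51% and 4.95% in 5 libraries. The exception was replicate 2 of activated T cells, with 54 of Ly6c1 and 192 of Ly6c2, or 22.0% (17.2 to 27.5). That library also had the highest Cd4 level and the highest myeloid marker sum of the T-cell libraries, 62.7 RPKM. Their part in the split was not tested. The keratinocyte libraries with more T-cell marker RNA, replicate 2 of each group, also held more Ly6c2, and this too was not tested.

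**Figure D2:**
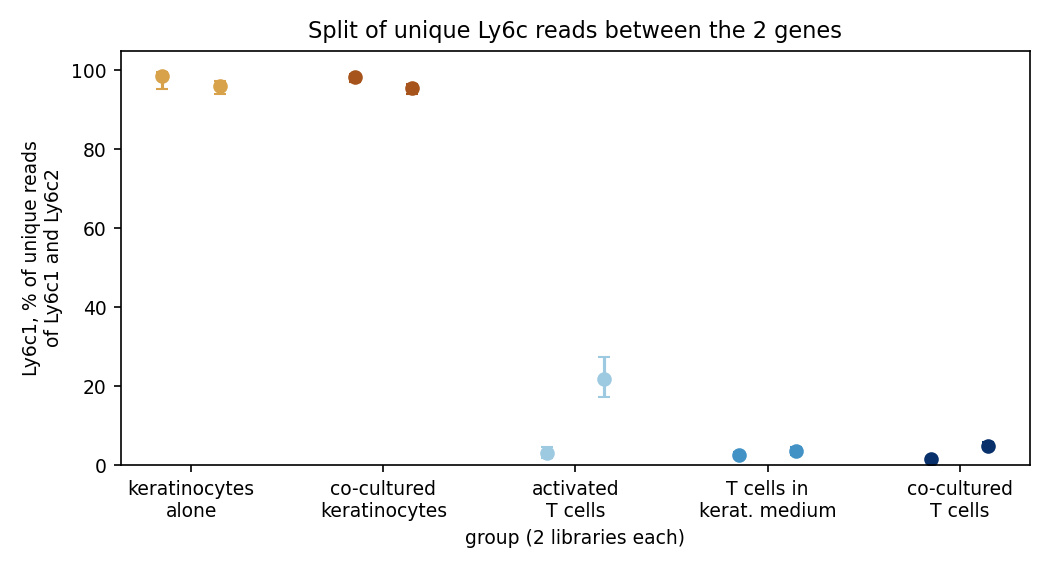
Ly6c1 as a percentage of the unique exon reads of Ly6c1 and Ly6c2 in each library, by group; bars are 95% Wilson intervals for counting error. The 4 keratinocyte libraries lie at 95.5% or above and the 6 T-cell libraries at 22.0% or below.

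The comparison of co-cultured keratinocytes with keratinocytes alone asked how T cells changed the keratinocytes. X-VIVO medium came with the T cells, so the medium may have changed along with them, and both cannot then be told apart. None of the 7 genes passed (edgeR), and no gene at all did, 0% of 12515, with 901 genes and 0 members at an unadjusted p under 0.05. DESeq2 called 88 genes higher and 98 lower, and limma 0, with no Ly6 member among them. 

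Ly6a was at 1435 and 773 RPKM after co-culture, both above the 459 and 685 RPKM of keratinocytes alone. Its mean was 1.93-fold higher, but the groups nearly met and the log2 difference of 0.99 ± 0.46 (SE) had an edgeR adjusted p of 0.658. The study includes Ly6a in its list of genes induced in co-cultured keratinocytes, whereas this fit did not call it. Ly6c1 also lay higher in both co-cultured libraries, 2.86-fold by mean (log2 difference 1.57 ± 0.72, edgeR adjusted p = 0.658). Ly6e spread from 480.2 to 990.2 RPKM after co-culture, around the 698 and 785 RPKM of keratinocytes alone. Ly6d overlapped as well, the means differing 1.04-fold. Among 20 interferon-stimulated genes, 20 had a positive log2 difference, with a median of 2.81 against 0.02 over all genes, 18 of them at an unadjusted p under 0.05 and 0 called. Most of these 20 genes are in the study's own list of genes induced in co-cultured keratinocytes, so their direction was largely known beforehand. The Ly6 median was 0.12.

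Ly6g6c was the member that lay lower after co-culture, at 112 and 7.49 RPKM against 313 and 195 RPKM. The libraries did not overlap, the mean was 4.25-fold lower, and the 2 co-cultured libraries held 2328 and 169 reads. The log2 difference of -2.07 ± 1.17 (SE) had an edgeR adjusted p of 0.658, and without replicate 1 of co-cultured keratinocytes it was -4.95. That fit had 1 co-cultured library, assumed to vary like keratinocytes alone, and called 107 genes higher and 1057 lower of 13113, so its edgeR adjusted p of 0.00613 for Ly6g6c is read against those calls. All 12 markers of differentiated keratinocytes had a negative log2 difference, with a median of -2.61, 11 at an unadjusted p under 0.05 and 0 called. Their sum was 4825 and 4398 RPKM in keratinocytes alone and 1392 and 423 RPKM after co-culture, the lowest sum being in the same library as the lowest Ly6g6c. Of 6 basal keratinocyte markers, 4 had a negative and 2 a positive log2 difference, with a median of -0.57 and 0 called. In that same library Col17a1 was at 16.5 and Itgb4 at 12.8 RPKM, the lowest of the keratinocyte libraries, but Krt14 was at 11836 RPKM, the highest. The part of the state of differentiation in the Ly6g6c level was not tested.

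The wider Ly6/uPAR relatives, genes with the same protein fold, were read from a list of 38 genes, 34 of them in the files, 8 without a read in any library and 13 tested in keratinocytes. None passed with edgeR, and 10 of the 13 had a negative log2 difference (median -0.97). Lypd3, whose product C4.4A lies on suprabasal cells, was at 286 ± 87.5 RPKM (SD, n = 2) alone and 158 ± 1.53 after co-culture. Lypd5, a gene of upper epidermal layers, was at 173 ± 54.6 against 54.0 ± 61.8 RPKM. Psca, the prostate stem cell antigen gene, was at 68.0 ± 57.4 against 13.1 ± 11.5 RPKM. Ly6g6e, beside Ly6g6c, was at 16.2 and 19.4 against 3.98 and 2.57 RPKM and came closest, with a log2 difference of -2.39 ± 0.40 (SE, edgeR adjusted p = 0.523). Lynx1, which modulates nicotinic receptors, was at 12.3 against 6.03 RPKM by mean, 2010109I03Rik at 12.5 against 4.77, Lypd6b at 8.98 against 4.36, and Pinlyp, a phospholipase inhibitor gene, at 20.9 against 19.3. Plaur, the urokinase receptor gene, had the opposite sign by mean, 4.25 against 6.55 RPKM, as had Gml, at 0.379 against 2.41 RPKM.

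The 3 T-cell groups asked what a further day in keratinocyte medium did to activated T cells and what keratinocytes added. The medium and the extra day cannot be told apart. The comparisons with activated T cells share those 2 libraries. In T cells in keratinocyte medium, 1 of 7 members passed, Ly6c2, which was higher. Of 11863 genes tested, 6.54% passed in either direction, and 2.32% of the genes tested passed as higher. In co-cultured T cells, 3 of 7 passed against activated T cells, Ly6a, Ly6c2 and Ly6g6c, all higher, where 10.3% of all genes tested passed in either direction and 4.59% passed as higher. Ly6g6c entered this fit only through the group where it is high, and outside Ly6g6c the count is 2 of 6. Between both cultured T-cell groups, 0 of 7 passed with edgeR (0.261% of genes, 31 of 11863), 1 member had an unadjusted p under 0.05, and DESeq2 and limma each called 1, Ly6g6c. Against activated T cells, the 5 T-cell markers all had a positive log2 difference in both cultured groups, 4 at an unadjusted p under 0.05 and 0 called. Their median was 1.16 in keratinocyte medium and 1.11 after co-culture, beside Ly6 medians of 1.15 and 1.09. Whether the Ly6 genes differed from these markers was not tested.

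Ly6c2 was at 66.8 and 22.6 RPKM in activated T cells, 229 and 130.1 RPKM in keratinocyte medium and 201 and 222 RPKM after co-culture. Both cultured groups lay above activated T cells and overlapped each other. The mean was 4.01-fold higher in keratinocyte medium (log2 difference 2.16 ± 0.51 SE, edgeR adjusted p = 0.0458) and 4.74-fold higher after co-culture (2.47 ± 0.51, edgeR adjusted p = 0.0235). The call in keratinocyte medium was lost without any 1 of the 4 libraries compared, with an adjusted p of up to 0.152 and log2 differences of 1.61 to 3.08. After co-culture it was lost without replicate 2 of activated T cells (1.92, adjusted p = 0.0509) and with limma at 0.1 added (2.44, adjusted p = 0.0615). Between the cultured groups the log2 difference was 0.31 ± 0.48.

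Ly6a had 317 and 373 RPKM in activated T cells, 499.9 and 473 RPKM in keratinocyte medium and 666 and 702 RPKM after co-culture, and these 3 groups did not overlap. The last against the first passed (1.98-fold by mean, log2 difference 1.18 ± 0.29 SE, edgeR adjusted p = 0.0418), and this call was lost on leaving out any 1 of the 6 T-cell libraries, with an adjusted p of up to 0.209 and log2 differences of 1.04 to 1.36. The step to keratinocyte medium had a log2 difference of 0.64 ± 0.29 (edgeR adjusted p = 0.220) and the step from there to co-culture 0.55 ± 0.29 (edgeR adjusted p = 1). Co-cultured keratinocytes held 1435 and 773 RPKM of Ly6a, and the part of their RNA in the T-cell value was not tested.

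Ly6e was at 157 and 308 RPKM in activated T cells, 621 and 398 RPKM in keratinocyte medium and 514 and 369 RPKM after co-culture. Both cultured groups lay above activated T cells, with log2 differences of 1.25 ± 0.41 (SE, edgeR adjusted p = 0.108) and 1.09 ± 0.41 (edgeR adjusted p = 0.127). Ly6k lay lower in both cultured groups. It was at 8.75 and 11.6 RPKM in activated T cells, 2.73 and 3.85 RPKM in keratinocyte medium and 2.61 and 4.01 RPKM after co-culture, 3.10-fold and 3.08-fold lower by mean, with no overlap. Its log2 differences of -1.48 ± 0.63 and -1.41 ± 0.63 did not pass (edgeR adjusted p = 0.195 and 0.185). Ly6c1 and Ly6d overlapped in all 3 T-cell groups. Of the 20 interferon-stimulated genes, 2 passed in keratinocyte medium and 3 after co-culture, all higher, beside the 2.32% and 4.59% of all genes tested that passed as higher.

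**Figure D3:**
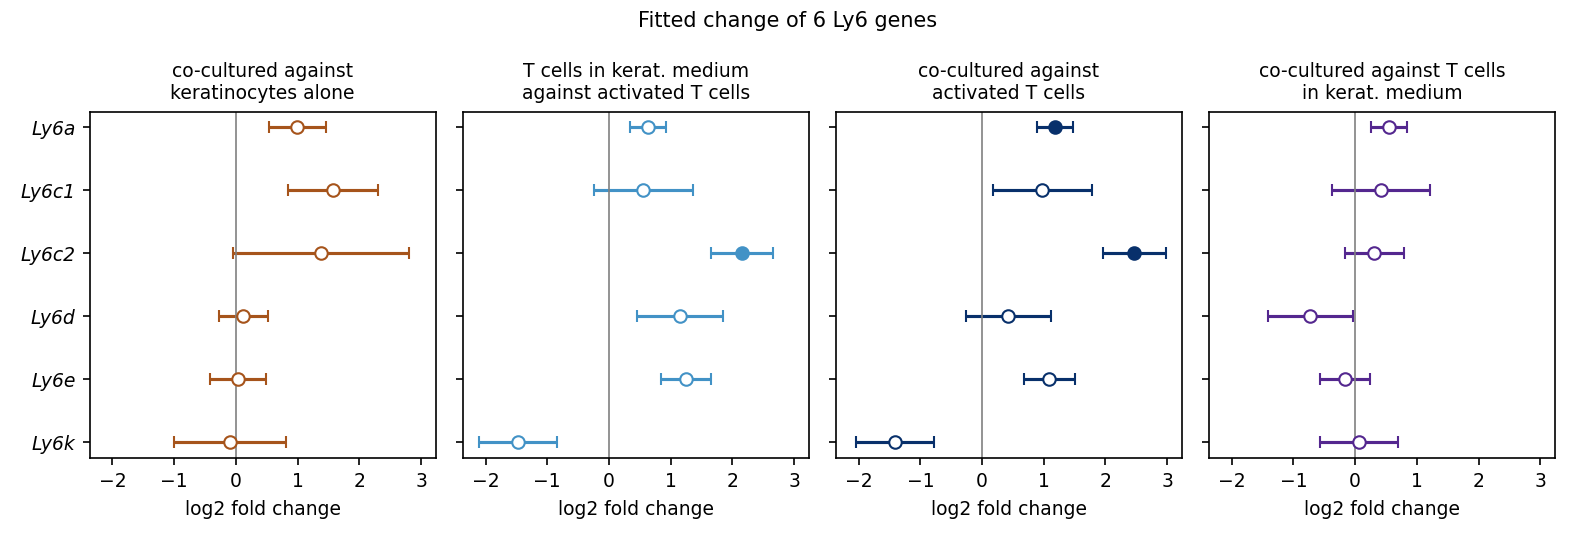
Fitted log2 fold change (x axis) of 6 Ly6 genes in 4 comparisons. Bars are standard errors derived from the F statistic, and filled points passed an edgeR adjusted p of 0.05. Ly6g6c is left out because a fitted change against groups with 0 or 1 read has no interpretable size. Filled points are Ly6c2 against activated T cells in both comparisons and Ly6a in co-cultured T cells.

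Ly6g6c was the member whose presence in T-cell libraries went with keratinocytes. It had 0 and 0 reads in activated T cells, 0 and 1 in keratinocyte medium and 102 and 88 after co-culture, the last being 4.90 and 4.55 RPKM. That was at least 33.4-fold above activated T cells, against a floor of 3 reads per library. The edgeR adjusted p of 0.0150 is that of a gene that passed the read filter only through co-cultured T cells. It was 0.0593 without replicate 1 of activated T cells and 0.0512 without replicate 2 of co-cultured T cells. Against T cells in keratinocyte medium the ratio of reads per total reads was 210 with an exact 95% interval of 37.2 to 8325, and the edgeR adjusted p was 0.177. Markers of differentiated keratinocytes moved with it. Sbsn, or suprabasin, was at most at 0.330 RPKM in keratinocyte medium and at 58.2 and 62.3 RPKM after co-culture, and Sprr1a, a cornified envelope protein gene, at most at 0.144 against 429 and 306 RPKM. Krt14, the keratin of basal keratinocytes, was at 61.6 and 16.8 RPKM in co-cultured T cells.

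Relative to co-cultured keratinocytes, the levels in co-cultured T cells differed by gene. The T-cell mean was 7.90% of the keratinocyte mean for Ly6g6c, 11.7% for Lypd5, 17.5% for Psca, 18.5% for Sbsn and 96.2% for Sprr1a, but 0.396% for Krt14 and 1.13% for Lypd3. Some differentiation markers were higher in the T-cell libraries than in co-cultured keratinocytes, by mean, among them Klk7, a kallikrein gene, at 53.7 against 12.1 RPKM, and Krtdap at 62.1 against 12.4 RPKM. Ly6d, at 658 RPKM in co-cultured keratinocytes, was at 15.8 RPKM in co-cultured T cells and 26.1 RPKM in T cells in keratinocyte medium. These ratios were not tested.

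**Figure D4:**
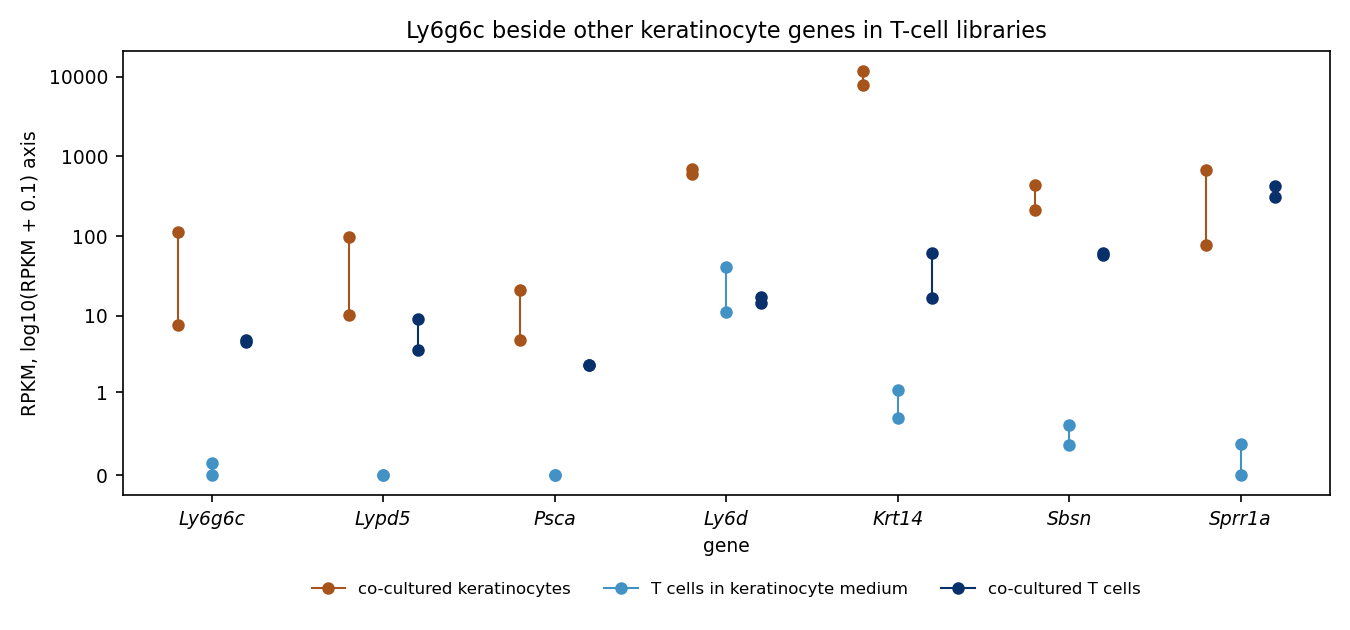
RPKM of Ly6g6c, 2 relatives, Ly6d and 3 keratinocyte genes (x axis) in co-cultured keratinocytes, T cells in keratinocyte medium and co-cultured T cells, on a log10(RPKM + 0.1) axis; points are libraries. Ly6g6c, Lypd5, Psca, Krt14, Sbsn and Sprr1a are higher in co-cultured T cells than in T cells in keratinocyte medium in both libraries, whereas Ly6d overlaps.

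Among the relatives, Lypd6b rose in culture, from 0.338 and 0.638 RPKM in activated T cells to 7.05 and 5.93 RPKM in keratinocyte medium (log2 difference 3.86 ± 0.54 SE, edgeR adjusted p = 0.0143) and 6.78 and 8.47 RPKM after co-culture. Plaur was at 6.10 and 3.49 RPKM in activated T cells, 12.9 and 9.59 RPKM in keratinocyte medium and 18.2 and 31.5 RPKM after co-culture, with no overlap. It passed after co-culture against activated T cells (log2 difference 2.61 ± 0.48, edgeR adjusted p = 0.0170) but not in keratinocyte medium (1.38 ± 0.47, edgeR adjusted p = 0.115). Lypd5, Lypd3, Psca and Gml had no read in either group without keratinocytes and entered the fit only through co-cultured T cells.

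For a different effect of co-culture in keratinocytes and T cells, 0 of 7 members passed with edgeR, where 0.576% of 13202 genes did. 1 member had an unadjusted p under 0.05, Ly6g6c, which DESeq2 called. Ly6g6c entered this fit only through groups with keratinocytes. The order of group means, with neighbours that overlapped, was as follows. Ly6a was highest in co-cultured keratinocytes, then in co-cultured T cells and keratinocytes alone, which overlapped, as did keratinocytes alone and T cells in keratinocyte medium, and lowest in activated T cells. Ly6e had keratinocytes alone and co-cultured keratinocytes on top, overlapping. Next came T cells in keratinocyte medium and co-cultured T cells, which overlapped each other and co-cultured keratinocytes, and activated T cells lay below all others. Ly6c2 had both cultured T-cell groups on top, overlapping, and both keratinocyte groups at the bottom, overlapping.

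By likeness of pattern over the 10 libraries (Pearson r of log2(RPKM + 1), 8737 candidate genes, a description in which the 2 cell types and the shared libraries set most of the value), the nearest genes differed by member. Ly6d lay nearest Rnh1 (r = 0.995), Cd151 (0.989) and Pinlyp (0.988), and Ly6g6c nearest Nupr1 (0.995), Lypd5 (0.994) and Krt80 (0.992). Ly6c2 lay nearest Ctse (0.992), Dapl1 (0.990) and Slain1 (0.989), and Ly6c1 nearest Anxa7 (0.959), Tceal9 (0.954) and Rac1 (0.948). Ly6k lay nearest Dnaja1 (0.969), Rnmt (0.961) and Swt1 (0.961), and Ly6e nearest Decr2 (0.959), Sqstm1 (0.938) and Atp6v0d1 (0.937). Ly6a had the least close neighbours, Pigo (0.852), Gm4841 (0.836) and Cs (0.833).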

How the data were processed

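RNA of 10 libraries (2 for each of 5 groups) was sequenced by the authors in single reads, aligned to GRCm38 with CLC Genomics Workbench at default settings and deposited as 1 gene table per library. Each table held whole-number counts of total and unique exon reads, exon-exon, intron and gene reads, deposited without normalization, and RPKM values computed by the authors. Whether counting used strand was not given in the sources used here. Groups came from the sample labels. Total exon reads were tested with edgeR 4.0.16 (filterByExpr, TMM, quasi-likelihood F test, adjusted p under 0.05 over all genes tested), after tests on simulated data. Fits held the 4 keratinocyte libraries, the 6 T-cell libraries, all 10 for the cell types, and for a different effect of co-culture all but the activated T cells. Alternatives used DESeq2 1.42.0, limma 3.58.1 on log2 RPKM (0.1 or 1 added first), scaling to library size alone, other filters, unique reads and each library left out. A read floor of 3 and intervals at 95% were used, covering counting error only. Libraries of a group differed by far more than counting noise (chi-square per degree of freedom 94.2 or more). The design text speaks of 2 parallel experiments, and p-values measure the spread between these libraries, which may be technical. TMM and library size placed the median gene apart by over 0.1 (log2) in 3 comparisons: -0.01 against -0.13 for T cells in keratinocyte medium and -0.01 against -0.17 for co-cultured T cells, both against activated T cells, and 0.14 against -0.02 for keratinocytes alone against activated T cells. All members were named. Relatives were named at a mean of 5 RPKM or more in any group, apart from Gml, which lay below that, and for each member the 3 genes nearest in pattern. The members and gene lists were chosen with earlier results of these data known.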

Additional observations from a re-analysis of the deposited data

Results flagged for a closer look

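The Ly6g6c level went opposite ways with co-culture in the libraries of the cell types. Both co-cultured keratinocyte libraries lay below both libraries of keratinocytes alone. Both co-cultured T-cell libraries lay above both libraries of T cells in keratinocyte medium. The test of that difference gave a log2 value of -9.57 (edgeR adjusted p = 0.118) and did not pass. Ly6g6c entered this fit only through groups with keratinocytes. Since T cells in keratinocyte medium held 1 read, the size of the log2 value depends on the prior count and is no bound. Keratinocyte marker RNA in the co-cultured T-cell libraries moved with Ly6g6c, and the part of that RNA in the Ly6g6c level was not tested. With 2 libraries per group, no single library could be judged against its group.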

How the results depend on the processing

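With 2 libraries per group, calls depended on single libraries and on the tool. Leaving out each library in turn, members called ranged from 0 to 1 in co-cultured keratinocytes, 0 to 1 in T cells in keratinocyte medium, 1 to 2 in co-cultured T cells against activated T cells, 3 to 6 in keratinocytes alone against activated T cells and 0 to 1 for a different effect of co-culture. Between keratinocytes alone and activated T cells, 3 were called without replicate 2 of keratinocytes alone. In T cells in keratinocyte medium, library size and limma with 0.1 gave 0 members, DESeq2 and no filter 2 (Ly6c2 and Ly6e), and limma with 1 gave Ly6k in place of Ly6c2. In co-cultured T cells against activated T cells, limma with 0.1 gave 1, whereas DESeq2 and no filter gave 4 (with Ly6e) and limma with 1 gave 4 (with Ly6k). Against T cells in keratinocyte medium, DESeq2, no filter and both limma fits gave 1, and for a different effect of co-culture DESeq2 and no filter gave 1. The sign also turned in some settings. For Ly6e in co-cultured keratinocytes the log2 value was -0.013 with library size, -0.10 with limma at either pseudocount, -0.0049 with all 10 libraries and -0.50 to 0.40 on leaving out a library. For Ly6k between both cultured T-cell groups it was -0.0043 with library size, -0.0022 with limma and 0.1, and -0.39 to 0.41 on leaving out a library. Leaving out a library also turned the sign of Ly6d (-0.19 to 0.52) and Ly6k (-0.44 to 0.34) in co-cultured keratinocytes, of Ly6c1 (-0.0037 to 1.54) and Ly6d (-0.19 to 1.92) in T cells in keratinocyte medium, of Ly6c1 (-0.39 to 1.96) and Ly6d (-0.055 to 1.17) in co-cultured against activated T cells, of Ly6c1 (-0.95 to 1.11), Ly6d (-1.43 to 0.61) and Ly6e (-0.39 to 0.090) between the cultured groups, and of Ly6d (-0.50 to 1.54), Ly6e (-0.30 to 0.53) and Ly6k (-0.54 to 0.30) for a different effect of co-culture. The cause was not tested.

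The labels number the replicates in 3 groups, both of keratinocytes and the activated T cells, and the deviations of same-numbered libraries correlated at 0.558 in keratinocytes and 0.243 between keratinocytes alone and activated T cells, with only 2 pairs, so the numbers were not taken as pairing the libraries. With a replicate block, 0 members were called in co-cultured keratinocytes, Ly6e had a log2 value of -0.030, and 6 were called in keratinocytes alone against activated T cells. Over all genes in co-cultured keratinocytes, edgeR with the block called 2 higher and 0 lower. It gave 2748 genes at an unadjusted p under 0.05, against 901 without the block. Over all genes, DESeq2 called 861 higher and 1086 lower in T cells in keratinocyte medium, against 776 in all, and library size gave 396 higher and 762 lower in co-cultured against activated T cells, where TMM gave 544 higher of 1222.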
